A study of Mus musculus with 28 samples.

Results

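The genes described here are the cytosolic ribosomal protein genes, the Rpl, Rplp, Rps, Rpsa and Fau genes that encode the proteins of the large and small subunits of the ribosome. They were chosen by symbol alone, with no measured value in the choice, and 84 of the 17690 gene rows in the tables carried such a symbol. The 77 mitochondrial ribosomal protein genes, which bear Mrpl and Mrps symbols, were kept apart and serve below as a neighbouring family.

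Cells from the subependymal zone (SEZ) of adult mice, where neural stem cells (NSCs) line the lateral ventricles, were sorted singly into wells and profiled by SORT-seq, a plate form of the CEL-seq protocol that counts the 3′ ends of polyadenylated transcripts. There were 7 sorts of Bl/6 mice with 4 libraries of 96 wells each. The mixed day-60 sort and the day-60 and day-2 tdTomato sorts came from Ki67iresCreER;Rosa-tdTomato mice given tamoxifen once at 5 mg, in which cells that express Mki67, a gene of dividing cells, turn on tdTomato for good, as do their descendants. The day-60 tdTomato cells were taken from the SEZ after 60 days, at 16 to 19 weeks of age, and the day-2 cells after 2 days, at 8 to 10 weeks. The mixed day-60 sort held tdTomato cells of the SEZ or the olfactory bulb 60 days after tamoxifen together with oligodendrocytes bound by an antibody to O4, from mice of 8 to 19 weeks. The other sorts came from mice of 8 to 10 weeks. Ki67-RFP cells came from Ki67tagRFP mice, whose red reporter follows Mki67. GLAST/EGF cells were sorted with an antibody to GLAST, a glutamate transporter of NSCs and astrocytes, and/or with labelled EGF, which binds cells that carry its receptor. For Prom1/CD24 the antibodies bound PROM1, found on cells that touch the ventricle, and CD24, found on neuroblasts. Troy-GFP cells came from Troy-GFPiresCreER mice, in which GFP marks cells that express Troy (Tnfrsf19), the study's NSC reporter. The number of mice behind a library is not labelled, so the spread between the 4 libraries of a sort, and every p-value, may be technical.

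Each ribosome holds a set of ribosomal proteins in fixed proportion, bound to ribosomal RNA, and cells that grow and divide need new ribosomes. The mRNAs of these genes are known for a 5′ terminal oligopyrimidine (TOP) tract, a C followed by a run of pyrimidines at the cap, through which the mTOR pathway sets their translation as a group. In the SEZ, quiescent NSCs are known for little protein synthesis, and synthesis rises when they enter the cycle and become transit-amplifying progenitors.

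The tract can be read at the annotated starts of the genes. Of 63 ribosomal protein genes with a RefSeq promoter window on GRCm38.p6, 14 (22.2%) had a C followed by at least 4 pyrimidines exactly at the annotated start, read on the gene's own strand, against 3.01% of 27025 genes. With the tract allowed to begin up to 5 bases after the start, the shares were 47.6% of the ribosomal protein genes and 21.2% of all genes. The windows below give 10 bases before and 20 bases after the annotated start, with the tract in capitals. The first 4 show the tract at the start in proteins of both subunits; Rpl22l1 and Rpl7l1 are shown because their levels departed from those of the other genes.
Rps21, chr2:180257369-180257398, + strand: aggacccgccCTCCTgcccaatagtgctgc
Rpl38, chr11:114668570-114668599, + strand: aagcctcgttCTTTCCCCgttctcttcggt
Rps6, chr4:86857348-86857377, - strand: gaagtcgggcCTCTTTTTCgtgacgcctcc
Rpl15, chr14:18270967-18270996, - strand: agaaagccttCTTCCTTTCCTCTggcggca
Rpl22l1, chr3:28805498-28805527, + strand: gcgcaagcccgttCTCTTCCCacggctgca
Rpl7l1, chr17:46782637-46782666, - strand: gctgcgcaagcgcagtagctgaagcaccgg
The tract began 3 bases after the annotated start in Rpl22l1, and no such tract was found within 5 bases of it in Rpl7l1. A match is a feature of these letters and of an annotated start, which was not checked against these cells.

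Of 2688 wells, 1789 held at least 1000 estimated transcripts and were kept as cells. All 28 libraries use the same 96 well barcodes. Library sums ran from 253051 to 572793 transcripts in 6 of the sorts and from 43149 to 106429 in Prom1/CD24, which had only 64 cells. The Ki67-RFP, day-60, mixed day-60 and Prom1/CD24 libraries carry the label of flow cell HVJH2BGXX, while Troy-GFP and GLAST/EGF were each split over HVJH2BGXX and AHY73KBGXX, and none is given for day 2. Transcripts of 4 Y-linked genes summed to between 290 and 407 CPM in the Troy-GFP and GLAST/EGF libraries and to 0 in the other sorts, so the sex of the mice and the sort cannot be told apart there. In Troy-GFP library 2, 24 cells were led by genes of the gut, and another 10 such cells lay in GLAST/EGF libraries 3 and 4. Cell classes were rebuilt from clusters made without ribosomal protein genes and cell cycle genes and are called "-like" because they rest on transcripts alone.

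Ribosomal protein transcripts formed the largest share of the transcriptome in the sorts of dividing or recently dividing cells and the smallest in cells that had kept the tdTomato label for 60 days. Their summed share of all gene transcripts was 10.5%, 10.5%, 10.3% and 9.58% in the 4 day-2 libraries and 9.38%, 9.17%, 9.74% and 8.77% in the Ki67-RFP libraries. It was 2.81%, 2.46%, 2.10% and 2.09% in day-60 tdTomato and 3.39%, 3.31%, 3.08% and 3.54% in Troy-GFP, so no library of these sorts came near one of day 2 or Ki67-RFP. The GLAST/EGF libraries lay between at 6.34%, 6.30%, 6.71% and 5.53%, as did Prom1/CD24 at 5.85%, 7.23%, 5.6% and 7.26%. The mixed day-60 libraries held 3.59%, 2.94%, 3.25% and 3.31%. As means this was 10.2% ± 0.427 in day-2, 9.27% ± 0.405 in Ki67-RFP, 2.37% ± 0.341 in day-60 tdTomato and 3.33% ± 0.193 in Troy-GFP (SD, n = 4 each). The ranges overlapped between day 2 and Ki67-RFP, between Prom1/CD24 and GLAST/EGF, and between mixed day-60 and Troy-GFP. No other ranges of the sorts overlapped.

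**Figure D1:**
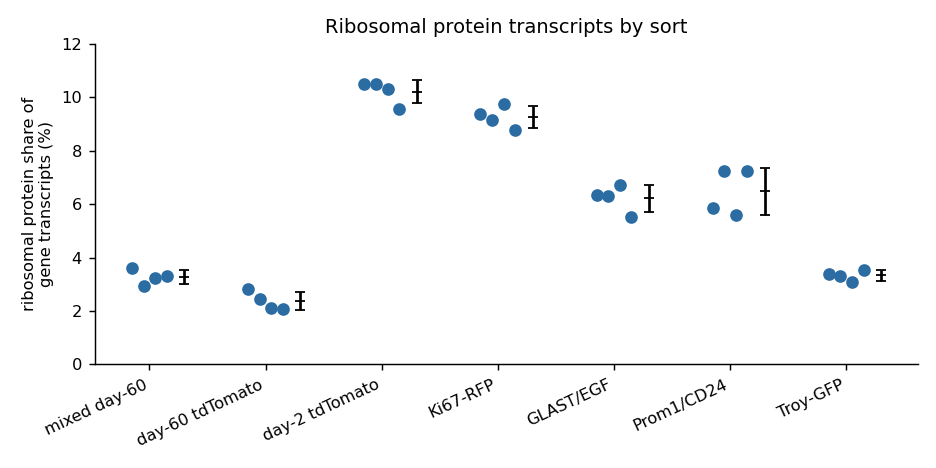
Share of all gene transcripts that came from the 84 ribosomal protein genes (y axis, percent), 1 point per library and 4 libraries per sort, with the mean and SD beside them. The day-2 and Ki67-RFP libraries lie between 8.77% and 10.5%, and the day-60 tdTomato libraries between 2.09% and 2.81%.

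A share can rise because other transcripts fall, so the transcripts were also set against the ERCC spike-in RNA of the same wells. Per ERCC transcript there were 1.5 ribosomal protein transcripts in Ki67-RFP, 1.21 in GLAST/EGF, 1.12 in day-2 tdTomato, 0.378 in Troy-GFP, 0.318 in Prom1/CD24, 0.273 in day-60 tdTomato and 0.215 in mixed day-60 libraries, as means of 4. On this scale Prom1/CD24 stood with the low sorts and day 2 no longer led, since all gene transcripts per ERCC transcript averaged 4.88 in Prom1/CD24 and 11 in day 2, against 16.2 in Ki67-RFP and 19.4 in GLAST/EGF. Ki67-RFP exceeded Troy-GFP on both scales in every library, with 1.38 to 1.73 against 0.355 to 0.401 per ERCC transcript.

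The share also differed between the classes of cells within a sort. In GLAST/EGF libraries, progenitor-like cells gave 8.00% ± 0.341 of their transcripts to ribosomal protein genes and NSC-like cells 1.87% ± 0.412; in Troy-GFP libraries the shares were 7.70% ± 0.451 in progenitor-like and 1.66% ± 0.109 in NSC-like cells (SD, n = 4 each). The lowest progenitor-like value in either sort was 7.23% and the highest NSC-like value 2.43%. NSC-like cells made up 82.8% of day-60 tdTomato cells, 65.9% of Troy-GFP, 41.2% of GLAST/EGF and 0.317% of Ki67-RFP cells, and progenitor-like cells 0% of day-60 tdTomato, 13.2% of Troy-GFP, 44.9% of GLAST/EGF and 56.2% of Ki67-RFP cells. A sort's level therefore joins how many cells of each class it holds with the level per cell. None of the classes was named for astrocytes, so the NSC-like class may include them. Whether its cells were stem cells or astrocytes was not tested, here or in the comparisons below. The comparisons within a class below set cells of the same class name side by side, but the clusters inside a class can still differ in number. Neuroblast-like cells, the migrating young neurons, kept a high share of 9.53% ± 0.272 in day-2 and 8.70% ± 0.414 in Ki67-RFP libraries. Per ERCC transcript, pooled over cells, neuroblast-like cells held 0.713 ribosomal protein transcripts at day 2 and 0.994 in Ki67-RFP. Progenitor-like cells of these sorts held more, 2.36 and 1.92. Mature neuron-like cells of the mixed day-60 sort were at 2.53% ± 0.153 and oligodendrocyte-like cells at 2.83% ± 0.222. Endothelial-like cells, caught in Troy-GFP, were at 4.67% ± 0.590.

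Within classes the clusters were not alike. Among NSC-like cells, the cluster led by Thbs4 held 3.48% ribosomal protein transcripts over 94 cells, against 1.05% to 1.52% in the other 4 NSC-like clusters. In the Troy-GFP libraries alone the Thbs4-led cells ranged from 2.75% to 3.67% and the Crym-led cells from 1.10% to 1.30%, with no overlap. Among progenitor-like cells of the Ki67-RFP sort, those led by 2810417H13Rik held 9.60% ± 0.435 and those led by Top2a, a topoisomerase of dividing cells, 7.89% ± 0.340 (SD, n = 4 libraries each), and these ranges did not overlap. In GLAST/EGF the 2810417H13Rik-led cells held 7.98% ± 0.376. The highest shares of all belonged to 2 small clusters that no marker list named: 21% in 24 cells led by Gzma, a granule protease of lymphocytes, and 19.7% in 10 cells led by Cd74, an antigen presentation gene. These clusters and the microglia-like cells, at 9.50%, numbered 16 cells in day-60 tdTomato and 40 in mixed day-60. Without them the share fell to 1.77% in day-60 tdTomato, against 2.37% with them, and to 2.57% in mixed day-60, against 3.27% with them.

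**Figure D2:**
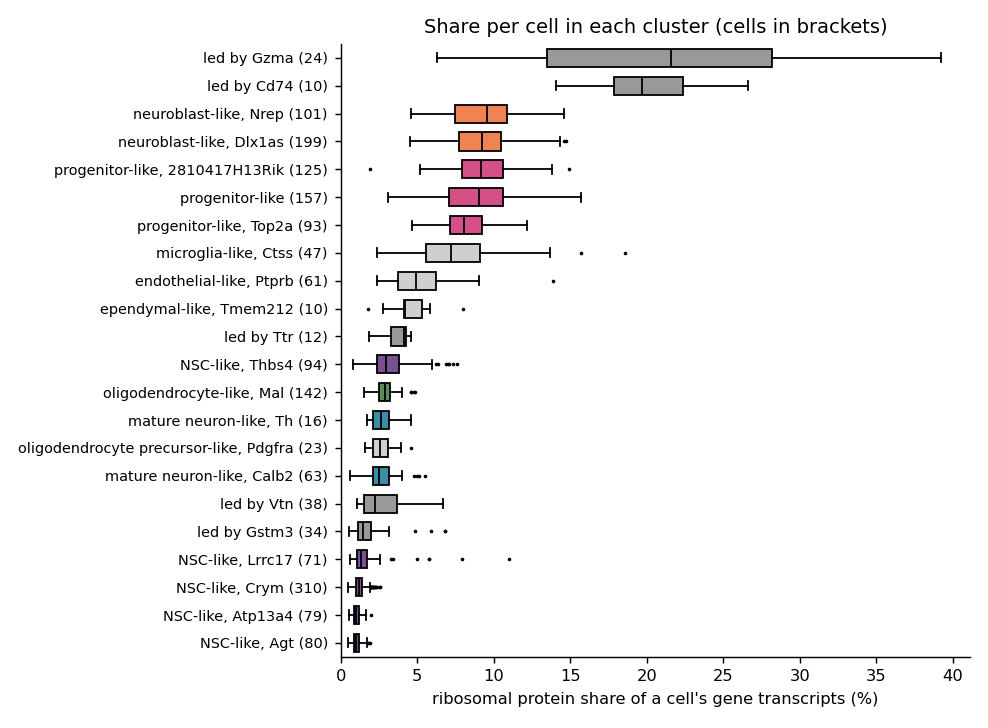
Ribosomal protein share of each cell's gene transcripts (x axis, percent) in 22 clusters, ordered by median, with class name, number of cells and, for all but 1 cluster, leading gene. Boxes span the quartiles with the median as a line, and points are cells beyond the whiskers. Progenitor-like and neuroblast-like clusters have medians from 8.04% to 9.56%, and the NSC-like clusters from 0.979% to 2.99%.

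Single genes of the family shared this pattern. Of the 84, 76 had a mean level of at least 100 CPM over the 7 sorts, CPM being transcripts per 1000000 gene transcripts of a library. Of these 76, 75 had their highest mean in Ki67-RFP or day 2 and 71 their lowest in day-60 tdTomato. Because a transcript gives a single 3′ tag, the levels are not scaled by length, and reads of near-identical copies limit comparisons between genes. The highest mean levels were those of Rpl41, the shortest protein of the family, at 1700 CPM, of Rpl13 at 1510 and of Rps29 at 1410. The other 8 genes were scarce or missing in many tables. Rps4l, Rplp2, Rpl34, Rps27, Rpl26, Rpl30, Rpl3l and Rpl39l had rows in 26, 26, 27, 22, 16, 10, 8 and 1 of the 28 tables. Rps27 and the 4 genes after it passed the filter in no comparison given below. Rplp2 passed it only where Ki67-RFP or day 2 took part and Rpl34 only where day 2 did, the sorts in which they were high. Both are included in the counts of those comparisons, where their calls are no support for a direction. Rps27l also needed its day-2 level to pass in the comparisons of day 2 with day-60 tdTomato and with mixed day-60. Its calls there are counted, but are no support for a direction either.

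In Ki67-RFP cells nearly all ribosomal protein genes were higher than in Troy-GFP cells. Of 78 tested, 76 rose and 0 fell, against 28.4% of all 8396 genes that rose and 31.2% that fell (limma voom, Benjamini-Hochberg adjusted p below 0.05 over all genes). The median log2 fold was 1.36 for these genes and -0.02 for all genes. The spread was narrow, with quartiles at 1.21 and 1.45, and the median was 1.35 over 45 large-subunit genes and 1.39 over 33 small-subunit genes. Only Rpl7l1 and Rps4l were not called.

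Rps26, a small-subunit protein at the mRNA exit channel (chr10:128624534-128626747 in mm10), had 1840, 1960, 1790 and 1650 CPM in Ki67-RFP, against 489, 432, 527 and 553 CPM in Troy-GFP. The log2 fold was 1.74 ± 0.10 (SE; adjusted p = 5.6e-14 by limma), with no overlap between the sorts. Rpsa, a small-subunit protein also known as a laminin receptor (chr9:120127689-120132369), had 1740, 1440, 1740 and 1530 CPM, against 507, 499, 363 and 408 CPM, a log2 fold of 1.74 ± 0.11. Rps15, a protein of the small subunit's head, showed the widest difference, with 864, 783, 733 and 737 CPM in Ki67-RFP and 185, 198, 145 and 215 CPM in Troy-GFP, a log2 fold of 1.95 ± 0.13. The stalk protein Rplp0 rose by 1.64 ± 0.10, its partner Rplp1 by 1.44 ± 0.10 and the ubiquitin fusion gene Rps27a by 1.46 ± 0.10. The lowest called folds were those of Rpl12 (0.86 ± 0.11), Rpl22l1 (0.86 ± 0.14) and Rpl31 (0.98 ± 0.19).

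**Figure D3:**
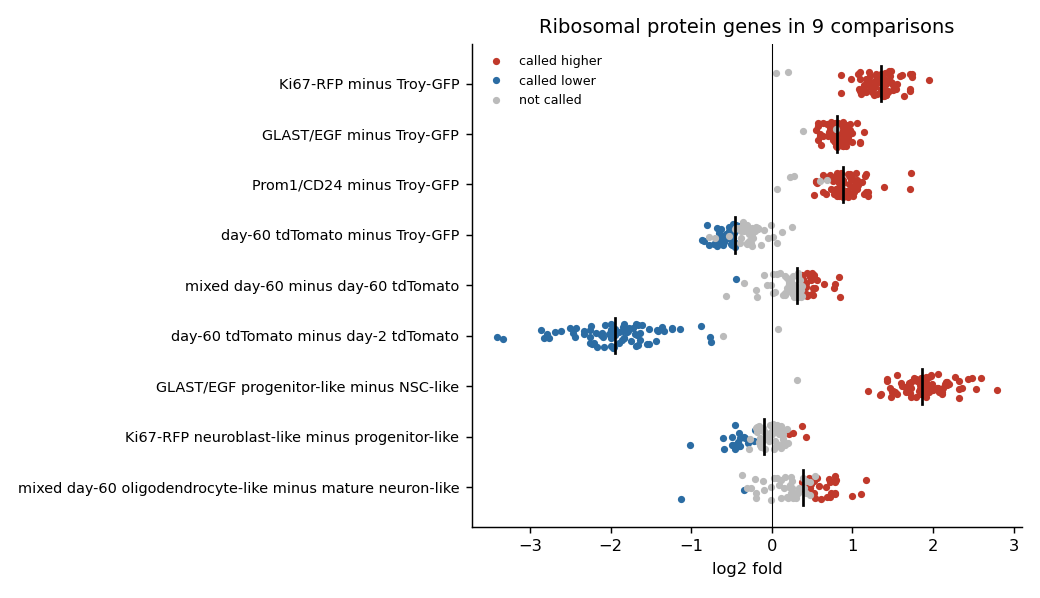
Log2 folds (x axis) of the ribosomal protein genes tested in 9 comparisons, 1 point per gene, red where called higher, blue where called lower and grey where not called, with the median as a black bar. The medians run from -1.95 in day-60 minus day-2 tdTomato to 1.86 in GLAST/EGF progenitor-like minus NSC-like cells.

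Nearly all of these genes were also higher in GLAST/EGF than in Troy-GFP cells. Of 77 genes tested 75 rose and 0 fell, against 14.9% and 15.5% of all genes, with a median log2 fold of 0.81 against 0.02 over all genes. Rps26 led with 1210, 1160, 1220 and 1030 CPM in GLAST/EGF, above the Troy-GFP values given earlier, and a log2 fold of 1.14 ± 0.11. Rpsa (1.09 ± 0.13) and Rplp0 (1.06 ± 0.12) followed Rps15a (1.10 ± 0.16), while Rpl22l1 (0.55 ± 0.15), Rpl38 (0.57 ± 0.11) and Fau (0.57 ± 0.14), which joins a ubiquitin-like peptide to a small-subunit protein, had the lowest called folds. With flow cell as a covariate, and without the cells led by gut genes, the count stayed at 75. With every cell thinned to 1000 transcripts it was 49.

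Inside the GLAST/EGF libraries, where both classes shared a library and flow cell, nearly all tested genes were higher in progenitor-like than in NSC-like cells. Of 76 genes tested 75 rose and 0 fell, against 25.4% and 29.9% of all 4086 genes, and the median log2 fold was 1.86 against 0.02 over all genes. Rps27l, Rpl37, Rpl14, Rpl31, Rpl36a and Rpl37a reached the filter in fewer than 4 NSC-like libraries and passed it through the progenitor-like ones. They are included in the counts, but their calls are no support for a direction. Rpl37a, a zinc-binding large-subunit protein, had 715, 725, 692 and 682 CPM in progenitor-like cells and 93.5, 120, 62 and 53.4 CPM in NSC-like cells, a log2 fold of 2.80 ± 0.31. Its NSC-like values rest on few transcripts and lay under the filter in library 4, so the size of this fold is uncertain. Rpsa had 1440, 1470, 1270 and 1180 CPM in progenitor-like cells and 135, 204, 262 and 178 CPM in NSC-like cells, a log2 fold of 2.54 ± 0.20. Rps6, the small-subunit protein that S6 kinases phosphorylate downstream of mTOR, had 1120, 1160, 1190 and 988 CPM in progenitor-like cells and 146, 277, 149 and 160 CPM in NSC-like cells, a log2 fold of 2.36 ± 0.20. For all 3 genes the lowest progenitor-like library lay several times above the highest NSC-like one. Rps19, mutated in Diamond-Blackfan anaemia in humans, rose by 2.60 ± 0.24 and Rplp0 by 2.48 ± 0.18. The smallest called rise was that of Rpl22l1, 1.19 ± 0.24, at 367 ± 36.2 CPM in progenitor-like and 130 ± 23.3 CPM in NSC-like cells (SD, n = 4). Median transcripts per cell were 11628 in progenitor-like and 4170 in NSC-like cells, and thinned to 1000 transcripts per cell 62 genes rose.

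As a part of the transcriptome, ribosomal protein genes were also higher in Prom1/CD24 than in Troy-GFP cells. Per ERCC transcript the sorts overlapped, with 0.232 to 0.441 ribosomal protein transcripts in Prom1/CD24 and 0.355 to 0.401 in Troy-GFP. Of 76 genes tested 71 rose and 0 fell, against 13.7% and 12.3% of all genes, with a median log2 fold of 0.89 against -0.04 over all genes. Rpl37 led with 139, 199, 181 and 163 CPM in Prom1/CD24 and 64.6, 39, 50.3 and 50.7 CPM in Troy-GFP (1.73 ± 0.24), followed by Rps15 (1.71 ± 0.17), Rpl31 (1.39 ± 0.29) and Rps29 (1.20 ± 0.13). The 5 genes not called here were Rps2 (0.23 ± 0.18), Rpl22l1 (0.27 ± 0.24), Rps15a (0.60 ± 0.22), Rps27l (0.69 ± 0.27) and Rpl7l1 (0.07 ± 0.26). These libraries rest on 64 cells, of which 25% were NSC-like and 20.3% progenitor-like.

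At day 60 the family was lower than in Troy-GFP cells by a modest amount. Of 77 genes tested 38 fell and 0 rose, against 7.96% and 6.56% of all genes, and the median log2 fold was -0.45 against 0.00 over all genes. Rpl4, a large-subunit protein that lines the exit tunnel, had 560, 509, 446 and 387 CPM in day-60 tdTomato, against 842, 903, 800 and 1010 CPM in Troy-GFP (-0.84 ± 0.13, adjusted p = 1.0e-04 by limma). Rpsa had 159, 338, 245 and 222 CPM, against 507, 499, 363 and 408 CPM (-0.86 ± 0.17), and Rps26 337, 259, 252 and 242 CPM, against 489, 432, 527 and 553 CPM (-0.80 ± 0.14). These genes did not overlap between the sorts, whereas Fau (-0.01 ± 0.19), Rps15 (0.06 ± 0.15) and Rplp1 (-0.10 ± 0.16) were not called. The count moved with the cells and libraries used. Without the microglia-like, Gzma-led and Cd74-led cells 68 genes fell, without the cells led by gut genes 43 fell, with flow cell HVJH2BGXX alone 14 fell, and with cells thinned to 1000 transcripts 1 fell. Leaving out 1 library at a time gave 18 to 54, with the lowest without day-60 library 3 (18) and day-60 library 4 (19) and 21 to 25 without Troy-GFP libraries 1, 2 or 4 or day-60 library 2.

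The comparison was repeated with only the NSC-like cells of both sorts. Of 76 genes tested 10 fell and 0 rose, against 1.27% and 1.47% of all 6392 genes, with a median of -0.30 against 0.00. The clusters inside the class differed between the sorts: the Thbs4-led cluster, with its higher share, held 17 of 289 NSC-like cells (5.88%) at day 60 and 54 of 205 (26.3%) in Troy-GFP. Within the Crym-led cluster, which held 56.4% of these cells at day 60 and 52.2% in Troy-GFP, the ribosomal protein share was 1.19% ± 0.0802 at day 60 and 1.20% ± 0.109 in Troy-GFP (SD, n = 4 each), with overlapping ranges. Rpl4 had 295, 350, 267 and 239 CPM in day-60 NSC-like cells and 482, 596, 440 and 462 CPM in Troy-GFP NSC-like cells (-0.75 ± 0.13), without overlap, and Rps18 (-0.73 ± 0.20) and Rps19 (-0.72 ± 0.20) came next. Leaving out 1 library at a time left 2 to 8 calls, with 2 without day-60 library 4 or Troy-GFP library 1, and a coarser clustering left 0. The call of Rpl4 held without any 1 library, while those of Rps18 and Rps19 did not. The mice of the day-60 sort were older, and age, sex and sort cannot be told apart here.

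Between day 2 and day 60 after tamoxifen nearly every tested gene differed. In day-60 tdTomato cells 77 of 79 tested genes fell and 0 rose relative to day-2 cells, against 32.8% and 34.8% of all genes, and the median log2 fold was -1.95 against 0.01 over all genes. Rps26 had 337, 259, 252 and 242 CPM at day 60, against 2130, 2180, 2070 and 2080 CPM at day 2 (-2.76 ± 0.12). Rpl39, which lines the exit of the peptide tunnel (chrX:37082520-37085402), had 268, 230, 212 and 146 CPM at day 60, against 1830, 1560, 1660 and 1620 CPM at day 2 (-2.79 ± 0.15). Rpl37 had 74.9, 43.1, 42.5 and 39.3 CPM, against 764, 551, 596 and 529 CPM (-3.41 ± 0.22), the widest difference of the family. The narrowest called ones were Rps14 (-0.75 ± 0.12), Rpl18 (-0.76 ± 0.14) and Rpl8 (-0.88 ± 0.14), which were not called once cells were thinned, and Rpl7l1 (0.08 ± 0.16) and Rps4l (-0.60 ± 0.40) were not called. At day 2, 72.7% of cells were neuroblast-like and 21.4% progenitor-like, against 0.573% and 0% at day 60. No flow cell is given for day 2, and the day-60 mice were older, so the run, the age and the day cannot be told apart.

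The mixed day-60 sort differed from day-60 tdTomato cells in part of the family. Of 76 genes tested 28 rose and 1 fell, against 22.2% and 21.1% of all genes, so the share that rose was 36.8% of the family; the median log2 fold was 0.31 against 0.00 over all genes. These folds are relative to the transcriptome: per ERCC transcript the direction was the other way, with 0.159 to 0.25 ribosomal protein transcripts in mixed day-60 and 0.251 to 0.32 in day-60 tdTomato. Rps3a1, a small-subunit protein, had 599, 487, 568 and 603 CPM in mixed day-60 and 358, 290, 255 and 254 CPM in day-60 tdTomato (0.85 ± 0.14), without overlap. Rpsa (0.83 ± 0.18) and Rpl4 (0.79 ± 0.13) followed, and the gene that fell was Rpl7l1 (-0.44 ± 0.16), whose call was lost without any of 6 of the 8 libraries. Without day-60 tdTomato library 3 or 4 the rises numbered 18 and 17, and with cells of at least 2000 transcripts 18. The number of rises also went up, with cells thinned and with some other libraries left out, as given in the last section.

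Within the mixed sort, oligodendrocyte-like cells were compared with mature neuron-like cells of the same libraries. Of 75 genes tested 32 rose and 2 fell, against 31.6% and 32.8% of all 3219 genes, and the median log2 fold was 0.39 against -0.01 over all genes. These folds are relative to the transcriptome. Per ERCC transcript, pooled over cells, there were 0.201 ribosomal protein transcripts in oligodendrocyte-like and 0.2 in mature neuron-like cells. The family's share over libraries overlapped, with 2.5% to 2.99% in oligodendrocyte-like and 2.39% to 2.74% in mature neuron-like cells. Rps6 had 481, 648, 515 and 630 CPM in oligodendrocyte-like cells and 275, 321, 253 and 310 CPM in mature neuron-like cells (1.17 ± 0.17), without overlap. Rplp0 rose by 1.11 ± 0.20 and Rpsa by 0.99 ± 0.18. Rpl22l1, a paralog of Rpl22, went the other way, with 160, 80.5, 115 and 116 CPM in oligodendrocyte-like cells and 421, 222, 301 and 266 CPM in mature neuron-like cells (-1.12 ± 0.22), again without overlap, and Rpl3 fell by 0.34 ± 0.15, a call lost when any library was left out. Without library 1, 21 genes rose, and with cells thinned to 1000 transcripts 0 did, when the log2 fold of Rps6 was 0.48 and that of Rpsa 0.20.

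Among dividing cells of the Ki67-RFP sort, neuroblast-like cells gave 8.70% ± 0.414 and progenitor-like cells 9.53% ± 0.517 of their transcripts to the family, and single genes differed in both directions. Per ERCC transcript, pooled over cells, neuroblast-like cells held 0.994 ribosomal protein transcripts and progenitor-like cells 1.92. The folds below are relative to the transcriptome. Of 76 genes tested 4 rose and 21 fell, against 14.7% and 9.66% of all 5133 genes, with a median of -0.09 against 0.05. Rpl10, which joins the large subunit late in its assembly, had 2070, 2170, 1730 and 2120 CPM in neuroblast-like cells and 1530, 1750, 1660 and 1520 CPM in progenitor-like cells (0.38 ± 0.07), an overlap of 1 library. Rpl7 rose by 0.21 ± 0.08, a call lost without library 1, 2 or 4. The largest fall was that of Rps27l, a paralog of Rps27 known in human cells as a p53 target, with 99.2, 143, 82.9 and 67.2 CPM in neuroblast-like and 160, 213, 268 and 203 CPM in progenitor-like cells (-1.02 ± 0.22), without overlap. Rps2, a small-subunit protein near the mRNA entry, fell by 0.61 ± 0.09, Rpl12 by 0.59 ± 0.12 and Rpl3 and Rpl22l1 by 0.49 each, with an SE of 0.09 and 0.14. For Rpl22l1 the thinned value was 0.05. Progenitor-like cells held 8103 transcripts per cell at the median and neuroblast-like cells 4457, and thinned to 1000 transcripts 4 genes fell; with cells of at least 2000 transcripts 11 fell.

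Day-2 cells differed from Ki67-RFP cells in both directions. No flow cell is given for day 2, and these sorts also differ in mouse strain and tamoxifen, so run, strain, tamoxifen and sort cannot be told apart. Of 79 genes tested 28 rose and 13 fell, against 14.3% and 14.2% of all 6952 genes, around a median log2 fold of 0.10 against 0.01 over all genes. Rpl37 (chr15:5116645-5119140) had 764, 551, 596 and 529 CPM at day 2 and 158, 152, 212 and 211 CPM in Ki67-RFP (1.70 ± 0.14). Rpl39 had 1830, 1560, 1660 and 1620 CPM at day 2 and 751, 631, 674 and 702 CPM in Ki67-RFP (1.25 ± 0.08). Both stood well clear of the Ki67-RFP range, and Rpl31 (1.15 ± 0.16) and Rpl37a (0.76 ± 0.11) were next. Rpl34, which passed the filter through its day-2 level, had 119, 73.8, 67.5 and 49.8 CPM at day 2 and 28.3, 15.5, 30.7 and 17.5 CPM in Ki67-RFP. It is counted among the 28, but its call is no support for a direction. In the other direction Rpsa had 677, 797, 701 and 589 CPM at day 2, against 1740, 1440, 1740 and 1530 CPM in Ki67-RFP (-1.24 ± 0.10), without overlap. Rpl8, a large-subunit protein near the peptidyl transferase centre, had 564, 702, 588 and 558 CPM at day 2, against 1120, 1080, 1200 and 1090 CPM in Ki67-RFP (-0.92 ± 0.09). Rpl18 (-0.80 ± 0.09), Rps14 (-0.79 ± 0.11) and Rps2 (-0.70 ± 0.10) followed. Thinned to 1000 transcripts per cell, 18 genes rose and 15 fell.

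For Rpsa and Rpl37 the difference was also seen inside each class, given here as levels with no test. In progenitor-like cells Rpsa averaged 794 ± 85.9 CPM at day 2 and 1760 ± 149 CPM in Ki67-RFP, and in neuroblast-like cells 592 ± 38.8 and 1270 ± 122 CPM (SD, n = 4 each). Rpl37 averaged 593 ± 116 CPM at day 2 and 186 ± 34.1 CPM in Ki67-RFP in progenitor-like cells, and 622 ± 68.4 and 173 ± 37.7 CPM in neuroblast-like cells.

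**Figure D4:**
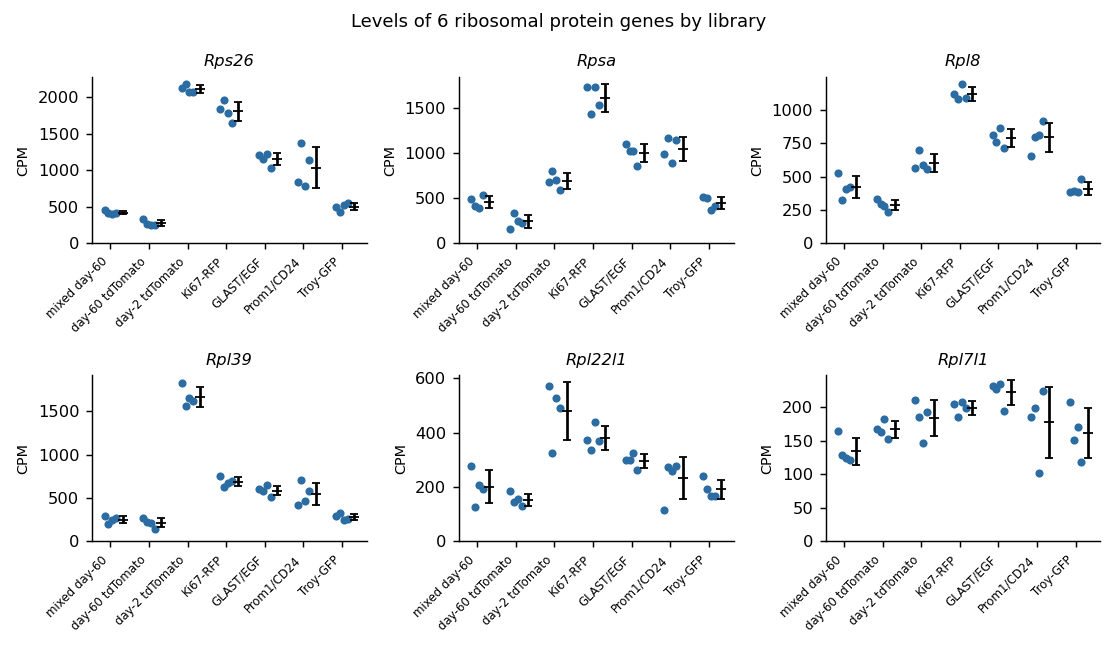
Levels of 6 ribosomal protein genes (y axes, CPM) in every library, 4 points per sort with the mean and SD beside them. Rps26 is high in day 2 and Ki67-RFP alike, Rpsa and Rpl8 are lower at day 2 than in Ki67-RFP, Rpl39 is highest at day 2, and Rpl7l1 spans 102 to 234 CPM over all sorts.

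The genes that set day 2 apart from every other sort were few. With a log2 fold of at least 1 in the same direction and a call in each of the 6 comparisons of day 2 with another sort, 2 of 76 testable ribosomal protein genes were higher, Rpl37 and Rpl39, and 0 lower, against 0.833% and 1.79% of 3961 genes. The 6 comparisons share the day-2 libraries, for which no flow cell is given, so this describes those libraries and their run together. The log2 folds of Rpl37 ran from 1.53 against Prom1/CD24 to 3.41 against day-60 tdTomato, and those of Rpl39 from 1.25 against Ki67-RFP to 2.79 against day-60 tdTomato. With a minimum of 0.5 the number was 17, among them Rps28, Rps29, Rpl38, Rpl37a and Rps15a, against 4.47% of all genes, and with no minimum 25, against 6.36%. With a minimum of 0.5 and with none, 0 of the 76 were lower, against 3.26% and 3.38% of all genes. The place of Rpl37 depended on a copy: with the Rpl37rt row added to Rpl37, the log2 ratio of mean levels, day 2 over Ki67-RFP, was 0.96, under the minimum of 1. The Rps27rt row, a copy of Rps27 outside the family, met the same rule, with log2 folds from 2.18 over GLAST/EGF to 5.23 over mixed day-60. Over mixed day-60, Prom1/CD24, day-60 tdTomato and Troy-GFP it passed the filter through its day-2 level. Its calls in those comparisons are no support for a direction. With Rps27rt added to Rps27, the log2 ratio ran from 2.19 over GLAST/EGF to 4.87 over mixed day-60. Rpsa at day 2 had a log2 fold of 0.47 over Troy-GFP but of -0.55 over GLAST/EGF, so it was not set apart in a single direction. Without Rpl37 and Rpl39 the summed share at day 2 was 9.97%, against 10.2% with them.

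Across the family the day-2 fold over Ki67-RFP went with the length of the coding sequence. Spearman's rho was -0.66 over 78 genes, against -0.14 over 6575 genes of all kinds. The genes share libraries and are not independent, so no p is given. Among the 39 genes with a coding length of up to 462 bases 23 rose and 3 fell, and among the 39 longer ones 5 rose and 10 fell. The 78 genes include Rpl34, which passed the filter only through its day-2 level. The same measure was -0.66 for day 2 minus GLAST/EGF, against -0.26 over all genes, and -0.60 for day 2 minus Troy-GFP, against -0.24. These comparisons share the day-2 libraries, whose flow cell is not given. Between sorts other than day 2 the measure was 0.38 for mixed day-60 minus day-60 tdTomato, against -0.07 over all genes. Against Troy-GFP it was -0.31 in Prom1/CD24, -0.28 in day-60 tdTomato, -0.02 in Ki67-RFP and 0.05 in GLAST/EGF. Over all genes these were -0.33, -0.06, -0.21 and -0.15, so the Prom1/CD24 value was near that of all genes. Values away from 0 were thus not limited to day 2.

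**Figure D5:**
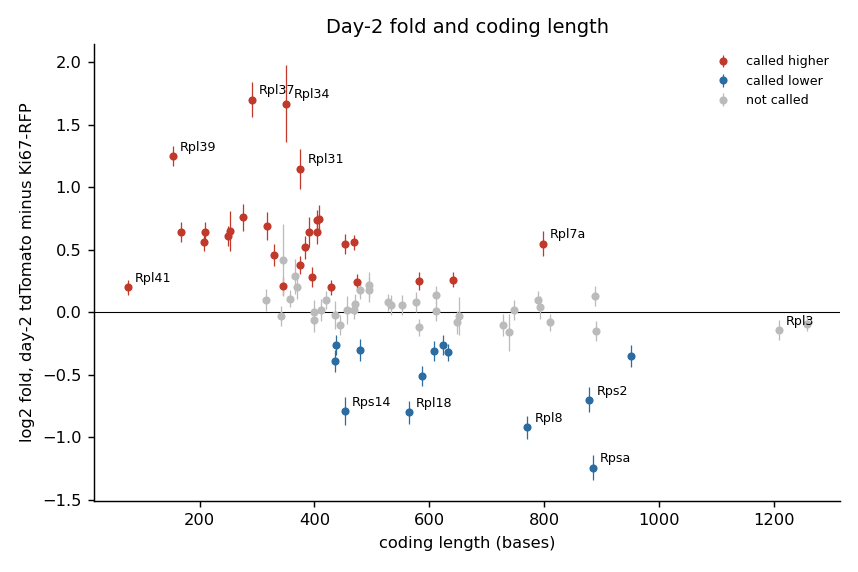
Log2 fold of day-2 tdTomato minus Ki67-RFP (y axis, with SE bars) against coding length in bases (x axis) for 78 ribosomal protein genes, red where called higher, blue where called lower and grey where not called. Rpl37 at 1.70 and Rpl39 at 1.25 lie among the short genes, and Rpsa at -1.24 and Rpl8 at -0.92 among the long ones.

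Copies of these genes elsewhere in the genome bear on single values. For 58 of 83 genes matched in GENCODE M21, part of the last 300 bases of the transcript, read in words of 50 bases, also occurred in another gene, and for 6 at least 90% of it did. Rpl37rt, a row for a retrocopy of Rpl37, had 1680 ± 103 CPM at day 2 and 993 ± 47.3 CPM in Ki67-RFP (0.73 ± 0.08), and Rpl37 with this row added had 2290 ± 202 and 1180 ± 76.9 CPM. Rpl31-ps12 had 1760 ± 177 CPM at day 2 and 1220 ± 73.2 CPM in Ki67-RFP (0.50 ± 0.08). Rps27rt, with 279, 308, 254 and 236 CPM at day 2 and 34.4, 25.2, 30.7 and 40.3 CPM in Ki67-RFP, differed by 2.99 ± 0.21, while the Rps27 row held 26.6 ± 14.8 and 3.35 ± 3.46 CPM (SD, n = 4). In these 3 pairs, and in Rps15a (0.64 ± 0.12) with Rps15a-ps6 (0.96 ± 0.13), both rows were higher at day 2. Other pairs were not alike: Rps19 fell (-0.39 ± 0.09) while Rps19-ps3 had 0.04 ± 0.25, and Rpl14 had -0.03 ± 0.15 while Rpl14-ps1 had -0.41 ± 0.25, without a call. How reads were divided between them is not known.

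The genes named as relatives of other members are given one by one. Rpl7l1 (chr17:46773907-46782672), a relative of Rpl7 known in human cells as a factor of large-subunit assembly, had 205, 185, 207 and 198 CPM in Ki67-RFP, against 207, 151, 170 and 118 CPM in Troy-GFP, and its ranges met in these sorts. It was not called in Ki67-RFP minus Troy-GFP (0.20 ± 0.15), in GLAST/EGF minus Troy-GFP (0.39 ± 0.16), in GLAST/EGF progenitor-like minus NSC-like cells (0.31 ± 0.22) or in day-60 minus day-2 tdTomato (0.08 ± 0.16). Rpl22l1 (chr3:28805436-28807424) had 374, 336, 441 and 369 CPM in Ki67-RFP, against 242, 194, 168 and 166 CPM in Troy-GFP, a rise of 0.86 ± 0.14, while Rpl22 rose by 1.42 ± 0.11. In progenitor-like cells Rpl22l1 averaged 690 ± 158 CPM at day 2 and 424 ± 54.3 CPM in Ki67-RFP. Rps27l averaged 399 ± 73.4 CPM in progenitor-like and 197 ± 60.7 CPM in neuroblast-like cells at day 2 (SD, n = 4 libraries).

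Other genes of ribosome production were read from lists written down for the purpose. Of 19 tested mRNAs outside the family that are known for a TOP tract, mostly translation factors, 19 rose and 0 fell in Ki67-RFP over Troy-GFP, with a median log2 fold of 1.06; of all genes 28.4% rose and 31.2% fell, which the next counts are also to be read against. Tpt1, which encodes the translationally controlled tumour protein, rose by 1.55 ± 0.07. Of 27 ribosome biogenesis genes, 15 rose and 1 fell, with the nucleolar proteins Nhp2 at 1.27 ± 0.20 and Fbl at 1.23 ± 0.19 and Nip7 at -0.34 ± 0.10. Of 75 mitochondrial ribosomal protein genes 26 rose and 1 fell, a share of rises not far from that of all genes, with a median of 0.37. RNA polymerase I genes gave 5 rises of 10 tested, led by Polr2k, a subunit shared by the polymerases, at 1.49 ± 0.18. Among 13 genes that control ribosome production, 3 rose, with Mycl at 2.46 ± 0.38 and Mycn at 1.25 ± 0.24 first, and 5 fell, Mtor (-0.99 ± 0.25) and Tsc1 (-0.90 ± 0.31) first, shares near those of all genes.

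The same lists in GLAST/EGF progenitor-like over NSC-like cells gave 18 of 19 TOP genes up, against 25.4% of all genes up and 29.9% down, led by Nap1l1 (2.21 ± 0.28) and the elongation factor Eef1a1 (2.02 ± 0.13). Of 14 biogenesis genes 11 rose, led by Nolc1 (2.60 ± 0.51) and nucleolin, Ncl (2.15 ± 0.22), and 3 of 31 mitochondrial ribosomal protein genes did. None of these lists had a fall there. In day-60 relative to day-2 tdTomato cells, where 32.8% of all genes fell and 34.8% rose, 17 of 19 TOP genes fell, Hnrnpa1 most (-2.64 ± 0.23), 12 of 20 biogenesis genes fell and 1 rose, and 31 of 70 mitochondrial ribosomal protein genes fell and 6 rose. In neuroblast-like over progenitor-like Ki67-RFP cells, where 14.7% of all genes rose and 9.66% fell, 9 of 21 biogenesis genes fell and 0 rose, with Ddx21 at -1.83 ± 0.39 and Gnl3 at -1.61 ± 0.42, and of 19 TOP genes 3 rose and 4 fell. At day 2 relative to Ki67-RFP, where 14.3% of all genes rose and 14.2% fell, 7 of 26 biogenesis genes fell and 0 rose, Ncl at -1.27 ± 0.11, and of 19 TOP genes 4 rose and 4 fell, with Hnrnpa1 at 1.48 ± 0.15 and the elongation factor Eef2 at -1.36 ± 0.11.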

How the data were processed

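The deposited tables hold, per gene and well, the authors' estimate of transcript molecules, a unit neither raw nor scaled between wells: of 4801006 values above 0, 4800995 equal the collision correction of a whole number of 256 random barcodes within 1e-06, and 11 stand at saturation. The submitters' processing notes name BWA 0.6.2-r126 and mm10. The members, gene lists and comparisons were chosen with earlier results of these data known.

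Wells with at least 1000 transcripts over gene rows were kept, 1 sorted cell per well, and no doublet caller was run. ERCC rows count in no gene total, and 2 cells too shallow to thin were left out of the thinned values. Cells were clustered with scanpy 1.11.5 (2000 variable genes, 30 components, 15 neighbours, Leiden resolution 1.0, seed 7) without ribosomal protein and cell cycle genes, and named from marker lists. Transcripts were summed per library, or per library and class of at least 5 cells, filtered (at least 10 transcripts per library at the median library size in 4 libraries, and 15 in all), scaled by trimmed mean of M values and tested with limma voom 3.58.1 in R 4.3.3 over all genes. Class comparisons within a sort had library as a block. The test was checked on simulated data. Named genes are, per comparison, the 5 called members with the highest and lowest folds, a list of fixed members and paralogs, and 2 called genes at each end of a pathway list; others named in the text, such as Rpl4, Rps2 and Rpl37 outside their own comparisons, were chosen after their values were seen. A value of ± beside a log2 fold is an SE with n = 4 libraries per group, and beside a level or share an SD. CPM in the text are not rescaled. A few genes and results that need them are not reported here. Coding lengths and positions are from GENCODE M21.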

Additional observations from a re-analysis of the deposited data

Results flagged for a closer look

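For the genes the text names, 133 groups of 4 libraries were checked for a library far from the other 3, and 10 were singled out; chance alone does so in about 1 group of 20. In Troy-GFP, Rpl8 stood at 481 CPM in library 4, above 381 to 389 CPM in the others. In Ki67-RFP, library 3 was apart for Rps15a at 764 CPM, against 537 to 556 CPM, and for Rps4l at 9.03 CPM, against 35 to 36.4 CPM. In day-2 tdTomato, Rps6 stood at 1140 CPM in library 4, against 1260 to 1280 CPM. In day-60 tdTomato, Rpl37 stood at 74.9 CPM in library 1, against 39.3 to 43.1 CPM. Mixed day-60 gave 4 of the 10: Rps2 at 476 CPM and Rpl7l1 at 164 CPM in library 1, Rpl41 at 893 CPM in library 2 and Rpl37 at 41 CPM in library 4. In Prom1/CD24, Rpl22l1 stood at 116 CPM in library 1, against 261 to 277 CPM.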

How the results depend on the processing

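Counts of ribosomal protein genes called in Ki67-RFP minus Troy-GFP, day-60 minus day-2 tdTomato and GLAST/EGF progenitor-like minus NSC-like cells stayed within 1.5 times under every alternative run, except that 1 gene fell in Ki67-RFP minus Troy-GFP with no filter. Thinning to 1000 transcripts per cell gave 49 rises in GLAST/EGF minus Troy-GFP, 1 fall in day-60 minus Troy-GFP, 18 rises in day-2 minus Ki67-RFP, 45 rises and 0 falls in mixed day-60 minus day-60, 4 falls in neuroblast-like minus progenitor-like, 0 rises in oligodendrocyte-like minus mature neuron-like and 1 fall in NSC-like cells, and shares of 2.91% (Troy-GFP), 4.93% (GLAST/EGF), 9.75% (day 2) and 4.21% (mixed day-60). It leaves fewer transcripts and weighs cells equally. It also turned Rplp0 (0.10) and Rpl22 (0.12) in day-60 minus Troy-GFP, Rps26 (-0.04) and Rpl41 (-0.04) in day-2 minus Ki67-RFP, Rpl22l1 (0.05) and Rpl13a (0.04) in neuroblast-like minus progenitor-like, and Rps3a1 (-0.20), Rps27a (-0.22), Rps4x (-0.15) and Rpl27a (-0.85) in oligodendrocyte-like minus mature neuron-like cells; no other named gene reversed. As a median over cells the shares were 1.60% (Troy-GFP), 4.43% (GLAST/EGF), 1.24% (day 60) and 2.75% (mixed day-60). Leaving out immune-led cells, chosen after seeing the data, gave 68 falls in day-60 minus Troy-GFP, 2 in mixed day-60 minus day-60, and shares of 1.77% and 2.57%; flow cell HVJH2BGXX alone gave 14 falls in day-60 minus Troy-GFP. A minimum of 2000 transcripts gave 18 rises and 2 falls in mixed day-60 minus day-60, 7 rises and 11 falls in neuroblast-like minus progenitor-like, 1 fall in oligodendrocyte-like minus mature neuron-like and 1 in NSC-like cells; a minimum of 500 gave 2 rises in neuroblast-like minus progenitor-like and 1 fall in NSC-like cells. With no filter there were 0 falls in mixed day-60 minus day-60, 2 rises in neuroblast-like minus progenitor-like, 1 fall in oligodendrocyte-like minus mature neuron-like and 2 in NSC-like cells. Finer clusters gave 9 rises and 13 falls in neuroblast-like minus progenitor-like and 2 falls in NSC-like cells, coarser ones 0 falls there. Scaling without ribosomal protein rows gave 1 fall in oligodendrocyte-like minus mature neuron-like. Day 2 alone held 17 genes at a log2 fold of at least 0.5 and 25 at none. Leaving out 1 library gave 18 to 54 falls in day-60 minus Troy-GFP, 17 to 42 rises and 0 to 2 falls in mixed day-60 minus day-60, 2 to 6 rises in neuroblast-like minus progenitor-like, 21 to 32 rises and 1 fall in oligodendrocyte-like minus mature neuron-like, and 2 to 8 falls in NSC-like cells. Library numbers did not pair samples, with same-number correlations of -0.0376 to 0.0468; a replicate block gave 42 falls in day-60 minus Troy-GFP and 2 in mixed day-60 minus day-60. Over named genes, 351 values lost and 57 gained their call, and 6322 kept it. The cause of these changes was not tested. Prom1/CD24, with 64 cells, had the lowest library sums.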
